A study of Mus musculus with 7 samples.

Results

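Transcripts of the AP-1 transcription factors and of 2 further immediate early genes were followed in 2 mouse T-cell acute lymphoblastic leukemias. The members were Fos, Fosb, Fosl2, Jun, Junb, Jund, Atf3, Batf, Ier2 and Zfp36, taken by name. Every probe set annotated to exactly 1 of these symbols was used, which gave 13 of 45037 probe sets and 10 of 18193 genes. A single probe set covered 7 of the genes, and Fosl2, Jun and Jund had 2 each. The TEL-JAK2 group held 4 arrays of leukemic thymus from terminally ill C57Bl/6 mice, whose leukemia was driven by a fusion of the ETS factor TEL to the kinase JAK2. The ICN1 group held 3 arrays of leukemic bone marrow from terminally ill C57Bl/6 mice, whose leukemia was driven by the intracellular, active part of NOTCH1. Both kinds of tissue were crushed and dissociated in cold buffer, filtered, pelleted and lysed, and no sorting is named. The labels name neither the ages, nor the promoter or vector carrying each oncogene, nor the host cells left in the tissue. Genotype and tissue coincided, so the 2 cannot be told apart. Each array carried its own identifier, but separate animals are not stated for every array, so the p-values reflect only the variation among these arrays, which may be technical.

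AP-1 is a dimer of basic leucine zipper proteins. JUN proteins pair with themselves or with FOS proteins, while ATF3 and BATF join JUN partners and bind related sites. Many of these genes are immediate early genes, whose transcription starts within minutes of a growth factor, antigen receptor or stress signal and needs no new protein. In T cells AP-1 acts downstream of the antigen receptor and MAP kinases, often beside NFAT. The same genes are also known to switch on in cells handled during tissue dissociation.

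The values are log2 expression values from RMA, and array medians were close to each other, the lowest at 5.44. Replicates were numbered in accession order. Pearson's r over all probe sets was 0.975 to 0.989 within TEL-JAK2, 0.973 to 0.982 within ICN1 and 0.921 to 0.944 between the groups. Mean levels of the T cell markers measured (5 of 6 fixed) were 11.90 to 12.47 in TEL-JAK2 and 11.05 to 11.41 in ICN1. With all arrays, 3 of the 5 were called higher in TEL-JAK2. This fell to 2 without ICN1 replicate 1, ICN1 replicate 2 or TEL-JAK2 replicate 1, and rose to 4 without TEL-JAK2 replicate 4. The erythroid markers averaged 5.04 to 5.64 in TEL-JAK2 and 12.02 to 12.29 in ICN1, with 8 of 8 lower in TEL-JAK2. The monocyte and macrophage markers averaged 6.47 to 8.80 in TEL-JAK2 and 8.97 to 10.32 in ICN1, with 4 of 9 lower. That count was 0 without ICN1 replicate 1, without ICN1 replicate 2, without both, or without TEL-JAK2 replicate 1, and 1 without TEL-JAK2 replicate 3. The granulocyte markers averaged 5.25 to 5.67 in TEL-JAK2 and 6.48 to 8.61 in ICN1, with 5 of 8 lower. That count was 2 without ICN1 replicate 1 or without any 1 of TEL-JAK2 replicates 1 to 3, and 3 without TEL-JAK2 replicate 4 or without ICN1 replicates 1 and 2. The 4 megakaryocyte markers were all lower, but 1 was called without TEL-JAK2 replicate 1 or without ICN1 replicates 1 and 2, and 2 were called without ICN1 replicate 1, ICN1 replicate 2, TEL-JAK2 replicate 2 or TEL-JAK2 replicate 3. No B cell marker (of 5) or dendritic cell marker (of 6) was called, although 2 dendritic cell markers were without ICN1 replicates 1 and 2. The thymic epithelial and stromal list had 1 of 8 higher and 1 lower, and 1 marker of it was called without ICN1 replicate 1, ICN1 replicate 2, both, or TEL-JAK2 replicate 1. ICN1 replicates 1 and 2 carried both Xist (11.51 and 11.79) and the Y-linked Eif2s3y (8.93 and 9.41), whereas Eif2s3y read 3.25 in ICN1 replicate 3. Whether ICN1 replicates 1 and 2 each mix RNA of male and female cells was not tested. In TEL-JAK2, replicate 4 read 5.19 for Xist and 10.23 for Eif2s3y, whereas replicates 1 to 3 read 13.12 to 13.36 and 3.18 to 3.29, so the TEL-JAK2 arrays hold RNA of more than 1 animal. Except for the T cell markers, values without ICN1 replicates 1 and 2 are given beside the calls that they change. ICN1 replicate 3 is then the single ICN1 array.

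Of the 13 AP-1 and immediate early probe sets, 2 were higher in TEL-JAK2 than in ICN1, 0 were lower and 11 were not called. The 2 were 1 probe set of Fosl2 and 1 of Jund, so 8 of the 10 genes had no called probe set. The calls come from limma, with p-values adjusted by Benjamini and Hochberg across the 45037 probe sets and a threshold of 0.05. Of all probe sets on the arrays, 19.6% were called, 9.26% higher and 10.3% lower. Junb had an unadjusted p = 0.0226 (limma) and was not called after adjustment. The 2 groups did not overlap in 3 of the 13 probe sets (Fosl2, Jund and Junb, all higher in TEL-JAK2), against 30.7% of all probe sets, 16.2% in that direction. Counted by brightest probe set, 2 of the 10 genes (Jund and Junb) did not overlap, against 34.3% of all genes, and 1 of the 10 was called, against 23.0%. With 13 probe sets, these shares rest on 2 calls and 3 separations, and no test set them against the background. The median difference over the brightest probe set of each of the 10 genes was 0.19, against 0.04 over all probe sets. For the same brightest probe sets of the 10 genes, the median standard deviation was 0.36 in TEL-JAK2 and 0.58 in ICN1. Over all probe sets it was 0.16 and 0.17 in the same 2 groups. That set was not limited to the brightest probe set of a gene, so the 2 sets are not matched. In bulk RNA, fewer cells of a type and less RNA per cell cannot be told apart.

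**Figure D1:**
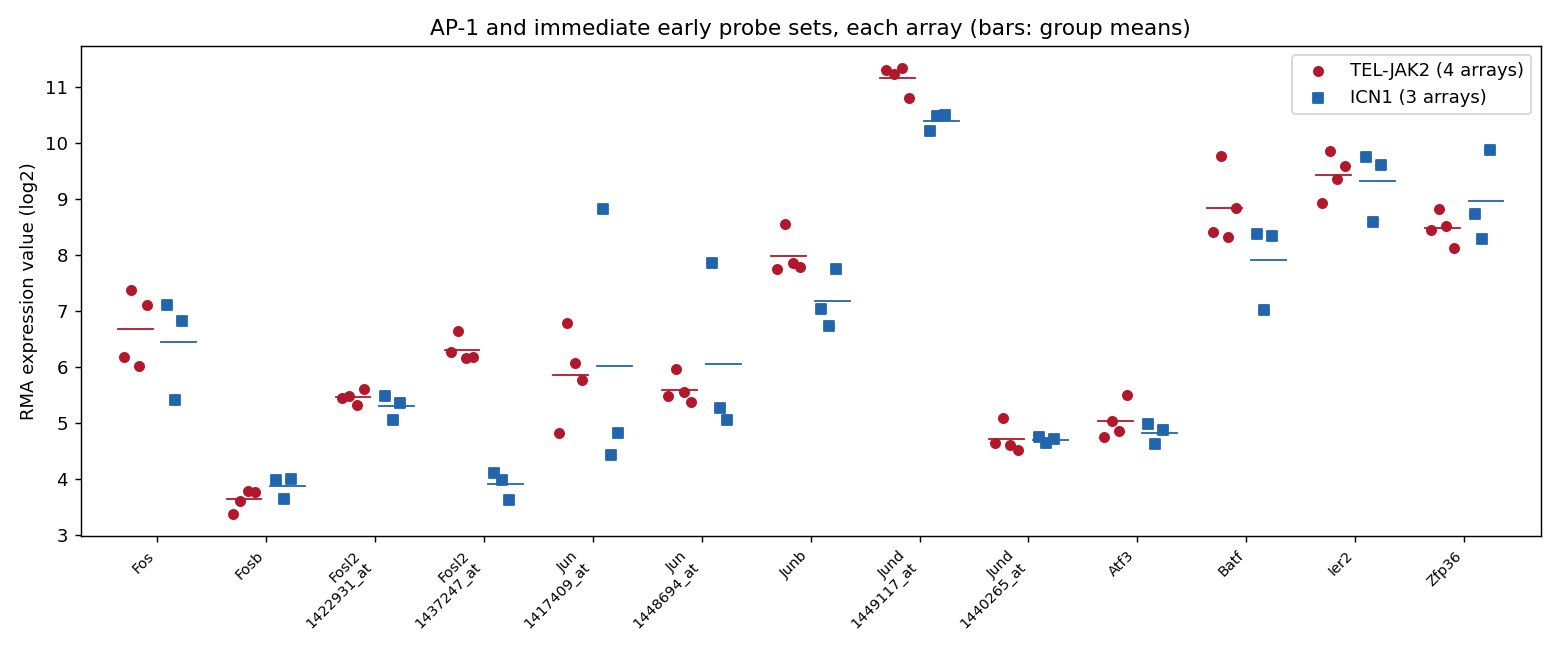
Log2 expression value (vertical axis) of each of the 13 probe sets in 4 TEL-JAK2 arrays (red circles) and 3 ICN1 arrays (blue squares), with horizontal bars at group means. The groups separate for Fosl2 1437247_at, Jund 1449117_at and Junb, and ICN1 replicate 1 stands at 8.82 and 7.86 in the 2 Jun probe sets.

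The sign of a difference depends on the level to which the arrays are scaled. With each array centred on the mean of Cd3d, Cd3e, Cd3g and Cd247, the CD3 chains of the T cell receptor complex, every difference moved by the same amount and the median of all probe sets moved to -0.59. The share of calls that were higher in TEL-JAK2 was then 4.94%, against 47.2% with the deposited scaling. Of all 45037 probe sets, 31563 were called under that centring, 30005 of them lower, so a lower call there is common to most probe sets. With that centring 1 member probe set was higher (Fosl2 1437247_at) and 3 were lower: Fosb (-0.86, adjusted p = 0.00871), Zfp36 (-1.11, adjusted p = 0.0296) and Jund 1440265_at (-0.61, adjusted p = 0.0239, limma). Set against the median of all probe sets under that centring, Fosl2 1437247_at stood at 2.37, Batf at 0.88, Junb at 0.78, Jund 1449117_at at 0.73, Fos at 0.19, Atf3 at 0.18, Fosl2 1422931_at at 0.13 and Ier2 at 0.08. Jund 1440265_at stood at -0.02, Jun 1417409_at at -0.20, Fosb at -0.27, Jun 1448694_at at -0.50 and Zfp36 at -0.52. The same shift applies to every probe set, so the order of the members is that of the deposited scaling.

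**Figure D2:**
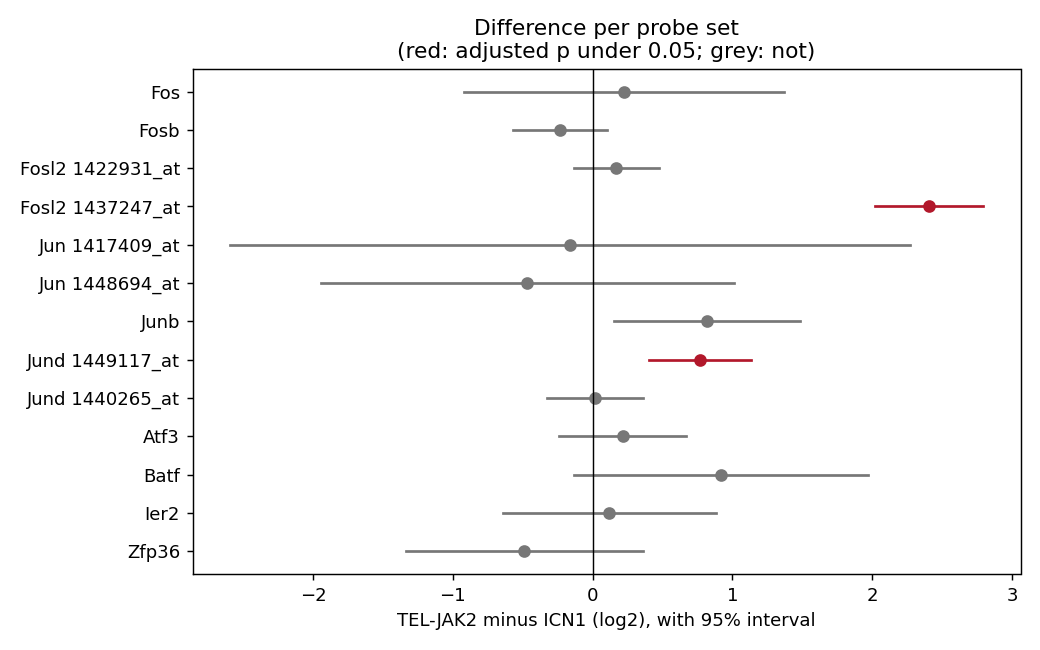
Difference TEL-JAK2 minus ICN1 (horizontal axis, log2) for each of the 13 probe sets, with the 95% interval of the limma fit. The intervals of Fosl2 1437247_at (2.02 to 2.79) and Jund 1449117_at (0.40 to 1.13), drawn in red, passed the adjusted threshold, and the widest interval is that of Jun 1417409_at (-2.59 to 2.27).

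The stretches around the start sites of the 2 called genes and of their relatives Junb and Fos show which letters known from immediate early promoters lie close to each start. RefSeq sequences on GRCm38.p6, from 250 bases before to 50 bases after the start, were matched for 9 of the 10 members (all but Ier2). The 4 printed run 5′ to 3′ on the gene's strand, and capitals mark the motif matches described next.
Fosl2, chr5:32136222-32136521, plus strand: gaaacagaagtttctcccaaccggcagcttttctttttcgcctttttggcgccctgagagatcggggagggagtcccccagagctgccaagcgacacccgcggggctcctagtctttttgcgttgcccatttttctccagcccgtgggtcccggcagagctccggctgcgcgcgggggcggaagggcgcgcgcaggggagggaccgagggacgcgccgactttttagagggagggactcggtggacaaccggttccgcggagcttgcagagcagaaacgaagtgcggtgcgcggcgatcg
Jund, chr8:70697489-70697788, plus strand: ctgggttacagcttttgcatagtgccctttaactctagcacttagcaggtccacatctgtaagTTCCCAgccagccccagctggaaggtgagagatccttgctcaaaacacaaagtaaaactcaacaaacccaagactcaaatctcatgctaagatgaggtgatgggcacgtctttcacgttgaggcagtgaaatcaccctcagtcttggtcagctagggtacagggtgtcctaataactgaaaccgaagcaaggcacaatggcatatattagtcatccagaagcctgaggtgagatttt
Junb, chr8:84978699-84978998, minus strand: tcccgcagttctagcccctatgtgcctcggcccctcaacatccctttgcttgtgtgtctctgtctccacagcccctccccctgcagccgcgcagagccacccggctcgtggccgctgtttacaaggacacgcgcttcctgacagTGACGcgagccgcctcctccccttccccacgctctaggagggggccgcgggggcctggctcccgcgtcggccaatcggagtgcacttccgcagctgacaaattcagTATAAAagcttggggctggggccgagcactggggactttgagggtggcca
Fos, chr12:85473640-85473939, plus strand: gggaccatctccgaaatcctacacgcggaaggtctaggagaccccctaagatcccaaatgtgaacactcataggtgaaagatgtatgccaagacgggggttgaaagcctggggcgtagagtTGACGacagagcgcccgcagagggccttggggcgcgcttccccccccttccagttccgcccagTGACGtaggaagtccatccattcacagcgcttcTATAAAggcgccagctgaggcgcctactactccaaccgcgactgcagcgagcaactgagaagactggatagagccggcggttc
The search covered both strands. It used the AP-1 site TGACTCA, the cyclic AMP response element TGACGTCA and its half-site TGACG, which the full element contains, the CArG box bound by SRF, the TATA box TATAAA, the STAT spacing TTCNNNGAA and TGGGAA, the core bound by the NOTCH partner CSL. The half-site was found in 5 of the 9 members (Fos, Fosb, Junb, Atf3 and Batf), against 20.8% of 32851 promoters of the same length. Fos held it at 129 and 66 bases before the start, with TATAAA at 33 bases. TATAAA was also present in Junb, where it began at the annotated start itself. Of all promoters, 13.6% held it. TGGGAA was found in Jun, Jund and Batf (25.6% of all promoters), and in Jund it lay 187 bases before the start. Within these windows, Zfp36 held the single CArG box (1.63% of all promoters) and the single TTCNNNGAA match (8.30%). Bases farther than 250 before each start were not searched, so a missing match, as of the CArG box in Fos, covers the window only. The AP-1 site and the full cyclic AMP element were in 0 of the 9 windows, against 5.20% and 1.79% of all promoters. Fosl2 had no match in this window. The matches are descriptions of these windows and not bound sites.

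Among the FOS genes, whose proteins need a JUN partner, the clearest difference was in Fosl2, which encodes FRA-2. Its probe set 1437247_at read 6.26, 6.65, 6.16 and 6.17 in the TEL-JAK2 arrays, against 4.10, 3.98 and 3.64 in the ICN1 arrays. All 4 TEL-JAK2 values lay above all ICN1 values. The difference was 2.40 ± 0.17 (log2, TEL-JAK2 minus ICN1, SE), a 5.29-fold higher value in TEL-JAK2 with an adjusted p = 0.000139 by limma. It remained called with CD3 centring (1.78, adjusted p = 0.000186) and in each of the 7 fits without 1 array (differences of 2.27 to 2.50). The ICN1 values lay below the array medians. The other Fosl2 probe set, 1422931_at, did not show this difference. It read 5.45, 5.48, 5.33 and 5.60 in TEL-JAK2 and 5.49, 5.05 and 5.36 in ICN1, with overlapping groups and a difference of 0.17 ± 0.13 (adjusted p = 0.431, limma). Its mean over the 7 arrays was slightly the higher of the 2, so a fit with 1 probe set per gene would miss the Fosl2 call. The mean of both probe sets was called (1.29, adjusted p = 0.000412). The files do not say which part of the transcript each probe set detects.

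Fos, the prototype immediate early gene, read 6.17, 7.38, 6.02 and 7.12 in TEL-JAK2 replicates 1 to 4, against 7.10, 5.42 and 6.83 in ICN1 replicates 1 to 3. Each group held high and low arrays, and the lowest value of all was in ICN1 replicate 2. The group means were 6.67 ± 0.68 in TEL-JAK2 (SD, n = 4) and 6.45 ± 0.90 in ICN1 (SD, n = 3). The difference of 0.22 ± 0.49 was not called (adjusted p = 0.805, limma), and its 95% interval ran from -0.92 to 1.37. Its sign turned without ICN1 replicate 2 (-0.29), without TEL-JAK2 replicate 2 (-0.01) and with CD3 centring (-0.40). Fosb, a close FOS relative that is also induced early, read 3.38 to 3.78 in TEL-JAK2 and 3.64 to 4.01 in ICN1. These values all lay below the array medians, and the difference of -0.24 ± 0.14 was not called with the deposited scaling (adjusted p = 0.313, limma).

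Among the JUN genes, Jund, the member least dependent on acute stimulation in many cell types, was higher in TEL-JAK2. Probe set 1449117_at read 11.30, 11.23, 11.34 and 10.80 in TEL-JAK2, against 10.21, 10.48 and 10.51 in ICN1. The groups did not overlap. The standard deviation was 0.25 in TEL-JAK2 and 0.17 in ICN1, against medians of 0.16 and 0.17 over all probe sets. The difference was 0.77 ± 0.16 (1.70-fold, adjusted p = 0.0132, limma), but with CD3 centring it was 0.15 and not called (adjusted p = 0.473), which is 0.73 above the median of all probe sets there. The mean of both Jund probe sets differed by 0.39 and was not called (adjusted p = 0.0604). Probe set 1449117_at itself was called in each of the 7 fits without 1 array (0.67 to 0.89). It was not called against a 1.5-fold difference (adjusted p = 0.991, limma). Without ICN1 replicates 1 and 2 together it differed by 0.66 and was not called, with the single ICN1 array assumed to vary like the TEL-JAK2 arrays. The CD3 genes moved in the same direction. With all arrays, Cd3d differed by 0.51 ± 0.11, Cd3g by 0.68 ± 0.14 and Cd247 by 0.88 ± 0.18 (all called by limma). Cd3e differed by 0.41 ± 0.15 (not called). Fewer T cell markers were called without some single arrays. The second Jund probe set, 1440265_at, read 4.51 to 5.09 in TEL-JAK2 and 4.65 to 4.75 in ICN1. It lay below the array medians and differed by 0.01 ± 0.15 (adjusted p = 0.96, limma).

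Junb, whose protein often restrains JUN and supports effector programs in T cells, read 7.76, 8.55, 7.87 and 7.78 in TEL-JAK2 and 7.03, 6.74 and 7.75 in ICN1. The groups did not overlap, although ICN1 replicate 3 lay just below the lowest TEL-JAK2 value. The difference was 0.82 ± 0.28 and was not called (adjusted p = 0.0893, limma), with a 95% interval from 0.15 to 1.48. Without ICN1 replicate 3 it was called (1.10, adjusted p = 0.0279), and with CD3 centring it was 0.19 (adjusted p = 0.598), which is 0.78 above the median of all probe sets there. Without ICN1 replicates 1 and 2 it was 0.24 (adjusted p = 0.722).

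Jun, the founding AP-1 subunit, stood out in a single array. Its probe set 1417409_at read 4.82, 6.79, 6.07 and 5.78 in TEL-JAK2, against 8.82, 4.44 and 4.82 in ICN1. ICN1 replicate 1 was 15.9-fold above the next ICN1 array, and all 4 TEL-JAK2 arrays fell between the ICN1 extremes. Probe set 1448694_at showed the same array, with 5.49, 5.97, 5.56 and 5.37 in TEL-JAK2 against 7.86, 5.28 and 5.06 in ICN1. There ICN1 replicate 1 was 5.97-fold above the next ICN1 array. Neither probe set was called, at -0.16 ± 1.04 (adjusted p = 0.937) and -0.47 ± 0.63 (adjusted p = 0.67, limma). Without ICN1 replicate 1 both differences turned positive, to 1.24 (adjusted p = 0.16) and 0.43 (adjusted p = 0.191), and neither was called. The first also turned to 0.19 without TEL-JAK2 replicate 1. Without ICN1 replicates 1 and 2 the 2 probe sets differed by 1.04 and 0.54, again not called. ICN1 replicate 1 was not set apart in this way by Fos, Junb or Jund. In ICN1 replicates 1 to 3 the monocyte and macrophage markers averaged 10.32, 10.10 and 8.97, and their part in the Jun value was not tested.

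**Figure D3:**
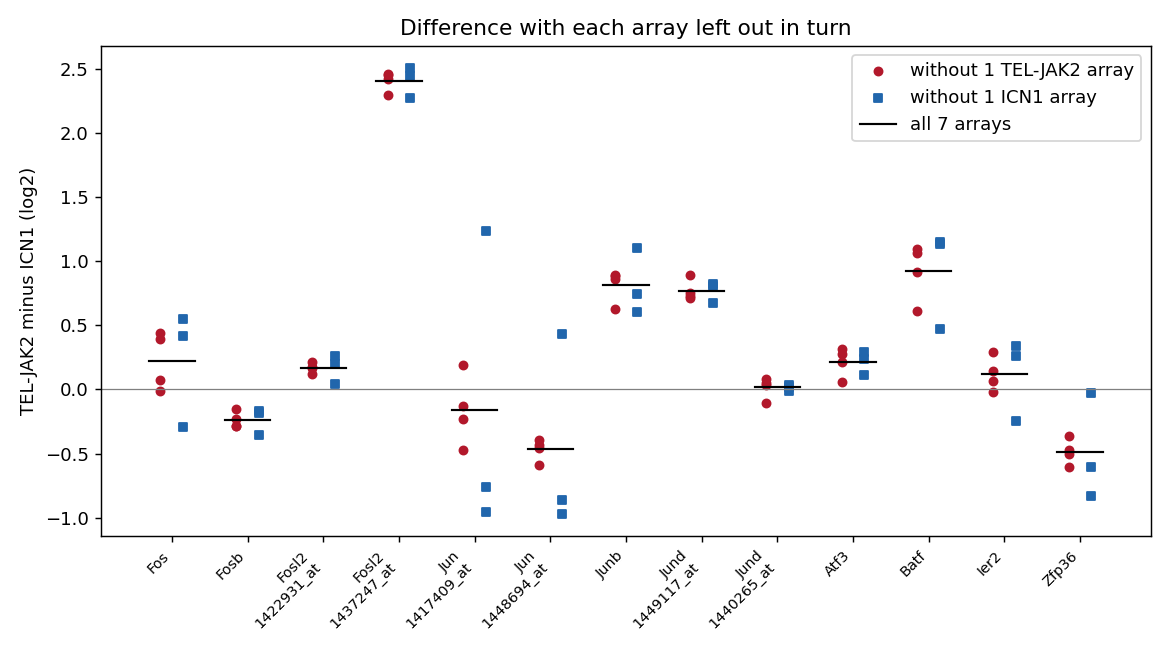
Difference TEL-JAK2 minus ICN1 (vertical axis, log2) for each of the 13 probe sets with all 7 arrays (black bars), without 1 TEL-JAK2 array (red circles) and without 1 ICN1 array (blue squares). Fosl2 1437247_at stays between 2.27 and 2.50, whereas Jun 1417409_at runs from -0.95 to 1.24.

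Batf encodes a partner of JUN proteins and IRF4 in activated T cells and B cells. It read 8.41, 9.77, 8.32 and 8.84 in TEL-JAK2, against 8.38, 7.02 and 8.35 in ICN1. Of the TEL-JAK2 arrays, 3 lay above every ICN1 array, and TEL-JAK2 replicate 3 fell just below the upper 2 ICN1 arrays. The difference of 0.92 ± 0.45 was not called (adjusted p = 0.21, limma), its 95% interval ran from -0.13 to 1.97, and it shrank to 0.47 without ICN1 replicate 2. Atf3, a stress-induced repressor and activator, read 4.74, 5.05, 4.87 and 5.51 in TEL-JAK2 and 4.99, 4.63 and 4.87 in ICN1. The groups overlapped, with a difference of 0.21 ± 0.19 (adjusted p = 0.508, limma) that turned to -0.41 with CD3 centring.

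Ier2 encodes a small nuclear protein of the immediate early class. It read 8.93, 9.86, 9.36 and 9.60 in TEL-JAK2, against 9.76, 8.59 and 9.60 in ICN1. The groups overlapped almost fully, and the difference of 0.12 ± 0.33 was not called (adjusted p = 0.846, limma). It turned sign without ICN1 replicate 2 (-0.25), without TEL-JAK2 replicate 2 (-0.02) and with CD3 centring (-0.50). Zfp36 encodes tristetraprolin, which binds AU-rich elements and speeds the decay of cytokine and immediate early mRNAs. It read 8.45, 8.83, 8.53 and 8.12 in TEL-JAK2, against 8.74, 8.28 and 9.88 in ICN1. ICN1 replicate 3 was above every other array. The difference of -0.49 ± 0.36 was not called (adjusted p = 0.414, limma) and was -0.03 without ICN1 replicate 3. With ICN1 replicate 3 as the single ICN1 array it was -1.40 (adjusted p = 0.0289), which rests on that 1 high value.

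Within each group, members were often low or high in the same arrays, but array positions over all genes were not counted. Among the 10 genes, each by its brightest probe set, ICN1 replicate 2 was the lowest ICN1 array for 9 and the highest for 0. Jund was the exception, lowest in ICN1 replicate 1. In TEL-JAK2, replicate 2 was the highest array for 6 of the 10 genes and the lowest for 0, while replicate 1 was the lowest for 5. Relative to group means, the median deviation of the 10 genes was 0.39 in TEL-JAK2 replicate 2 and -0.28 in TEL-JAK2 replicate 1, and it was -0.56 in ICN1 replicate 2 against 0.17 and 0.21 in the other ICN1 arrays. Fos was high in TEL-JAK2 replicates 2 and 4 and low in replicates 1 and 3, and the monocyte and macrophage markers averaged 7.29, 8.63, 6.47 and 8.80 in TEL-JAK2 replicates 1 to 4. In ICN1 the lowest Fos value was in replicate 2, where these markers averaged 10.10 and the granulocyte markers 8.61, their highest of the 7 arrays. The part of other cell types in this order was not tested.

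Similarity of pattern was measured as the root mean square difference of log2 values, each centred on its gene's mean over the 7 arrays, among 10861 genes with a mean above the median of all values. The 3 genes closest to Fos were Nampt (0.268), an enzyme of NAD synthesis, Egr2 (0.283), a zinc finger factor induced by the T cell receptor, and Ier2 (0.306). Egr2 read 5.01, 6.65, 4.75 and 5.81 in TEL-JAK2 and 6.58, 4.50 and 6.10 in ICN1, with the same high and low arrays as Fos. The genes closest to Junb were Pacsin1 (0.135), Irf2 (0.137), an interferon regulatory factor, and Ppm1m (0.173). The genes closest to Jun were farther away, B230217C12Rik at 0.724, Tmem176a at 0.738 and Kctd17 at 0.748, and each had its highest value in ICN1 replicate 1. These distances describe 7 arrays that share 1 normalization.

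**Figure D4:**
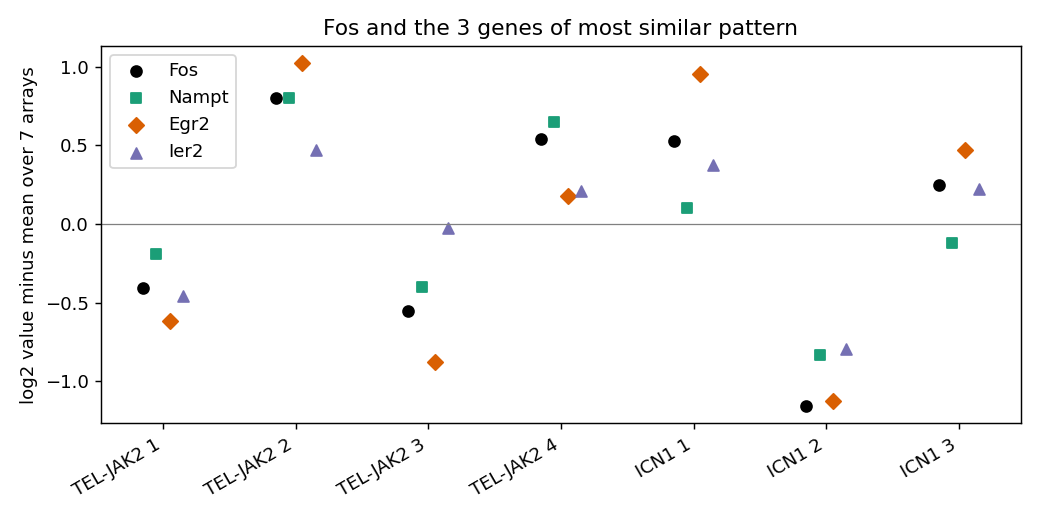
Log2 value minus the gene's mean over the 7 arrays (vertical axis) for Fos, Nampt, Egr2 and Ier2 in each TEL-JAK2 array (left) and ICN1 array (right), 1 marker per gene. All 4 genes are low in ICN1 replicate 2 and high in TEL-JAK2 replicate 2.

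Other genes of the pathway are given next, list by list. List genes were represented by their brightest probe set, and 23.0% of all genes were called on that basis. Of 12 further AP-1 and partner leucine zipper genes measured (13 fixed), 2 were called higher in TEL-JAK2, 3 were called lower and 7 missed the threshold, with a median difference of 0.43. Jdp2, a repressor that dimerizes with JUN, read 9.69 to 10.21 in TEL-JAK2 and 5.29 to 7.85 in ICN1. The difference was 3.07 ± 0.55 (8.42-fold, adjusted p = 0.0078, limma), while its second, dim probe set was not called (0.24, adjusted p = 0.169). Bach2, a repressor that pairs with small MAF proteins and competes with AP-1 in lymphocytes, read 8.67 to 9.50 in TEL-JAK2 and 5.26 to 7.02 in ICN1 (2.96 ± 0.40, adjusted p = 0.00241). A further Bach2 probe set was called (2.30, adjusted p = 0.00811) and another was not (0.30, adjusted p = 0.111). Mafg, a small MAF protein, was 3.06-fold lower (-1.61 ± 0.26, adjusted p = 0.00509), although its second probe set missed the threshold (-0.77, adjusted p = 0.106). Mafk (-0.47 ± 0.12) and Atf2 (-0.49 ± 0.14) were lower too, but 6 of the 7 fits with 1 array removed gave no call for either: Atf2 was called there with TEL-JAK2 replicate 3 removed and Mafk with ICN1 replicate 1 removed (adjusted p up to 0.126 for Atf2 and 0.0912 for Mafk). Of 4 further Atf2 probe sets, 1 was called lower (-0.42, adjusted p = 0.0413), 2 differed by -0.33 and -0.53 and 1 by 0.53, none of these 3 being called, and the mean of the 5 was not called (-0.25, adjusted p = 0.187). The brightest Atf2 probe set was not called without ICN1 replicates 1 and 2 (adjusted p = 0.147). Bach1 (1.16 ± 0.42) and Maf (2.45 ± 0.89) were not called, although Bach1 was without TEL-JAK2 replicate 4 (1.46, adjusted p = 0.0337) and Maf was with CD3 centring (1.82, adjusted p = 0.0485).

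Of 14 measured kinases and nuclear factors upstream of AP-1 (18 fixed), 2 were higher and 0 lower, with a median difference of 0.07. Map2k1, the MEK1 kinase of the ERK pathway, read 9.48 to 9.81 in TEL-JAK2 and 8.36 to 9.09 in ICN1 (0.88 ± 0.19, adjusted p = 0.0159, limma), but it was not called with CD3 centring (0.26) or without ICN1 replicates 1 and 2 (0.71, adjusted p = 0.0549). Elk4, an ETS partner of SRF, differed by 0.33 ± 0.09 and was not called in any of the 7 fits that dropped an array (adjusted p = 0.0587 to 0.136, limma). Without ICN1 replicates 1 and 2 it differed by 0.27 and was not called, and it turned to -0.29 with CD3 centring. A dimmer Elk4 probe set was called higher (0.51, adjusted p = 0.0201). Its remaining probe sets, at 0.26 and -0.0072, were not called, nor was the mean of all its probe sets (0.27, adjusted p = 0.082). The brightest members not called were the kinases Rps6ka3 (-0.14 ± 0.11) and Mapk14 (0.08 ± 0.10, with 1 dimmer probe set called at 0.47, adjusted p = 0.022).

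Of 17 other immediate early genes, 3 were higher, 3 lower and 11 not called, with a median difference of 0.15. Ppp1r15a, a stress-induced subunit that directs a phosphatase to eIF2 alpha, read 7.17, 7.62, 7.48 and 7.06 in TEL-JAK2, against 11.56, 12.20 and 11.31 in ICN1. It was 20.5-fold lower in TEL-JAK2 (-4.36 ± 0.23, adjusted p = 4.22e-05, limma), the direction in which the erythroid markers differed. The part of other cell types in this and the other differences of list genes was not tested. Klf6, a zinc finger factor, was 5.85-fold higher (2.55 ± 0.30, adjusted p = 0.00139), and 4 further probe sets of it were also called higher (1.14 to 2.97). Ier3, an early gene with a role in cell survival, was 6.80-fold lower (-2.76 ± 0.49, adjusted p = 0.00789), but was not called without ICN1 replicates 1 and 2 (-2.64, adjusted p = 0.104). Egr1 (-1.77 ± 0.66, adjusted p = 0.109) and Nfkbia (0.47 ± 0.16, adjusted p = 0.0783) were not called, but Egr1 was called without ICN1 replicate 2 (-2.58, adjusted p = 0.0127) with CD3 centring (-2.39, adjusted p = 0.0132) and without ICN1 replicates 1 and 2 (-2.69, adjusted p = 0.0448), and Nfkbia without ICN1 replicate 3 (0.62, adjusted p = 0.0323). A further Nfkbia probe set was called higher (0.76, adjusted p = 0.0411).

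Heat shock genes, which also respond to handling, had 1 of 7 members higher, Dnajb1 (0.62 ± 0.13, adjusted p = 0.0137), and 1 lower, Hsp90aa1 (-1.20 ± 0.20, adjusted p = 0.0061, limma), with a median difference of 0.03. Dnajb1 differed by -0.01 with CD3 centring. Hspa8 (0.04 ± 0.14) and Hspe1 (-0.46 ± 0.18) were not called. The mean level of this list was 9.41 to 9.96 in TEL-JAK2 and 9.74 to 10.08 in ICN1.

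Of 10 measured relatives of Zfp36 and AU-rich mRNA decay factors (11 fixed), 2 were higher, 2 lower and 6 not called, with a median difference of 0.09. Zfp36l1, a tristetraprolin relative that also destabilizes mRNAs, differed by 0.88 ± 0.24 (adjusted p = 0.0392, limma). That call was held in 2 of the 7 fits without 1 array, those without ICN1 replicate 3 or TEL-JAK2 replicate 4, was lost with CD3 centring (0.25, adjusted p = 0.394) and without ICN1 replicates 1 and 2 (0.48, adjusted p = 0.295), and was not shared by its other probe set (0.01). The exonuclease Xrn1 was higher (0.81 ± 0.13, adjusted p = 0.00501), but was not called with CD3 centring (0.19). The AU-rich binding proteins Hnrnpd (-0.94 ± 0.10, adjusted p = 0.00112) and Khsrp (-0.54 ± 0.09, adjusted p = 0.00578) were lower, and Khsrp was not called without ICN1 replicates 1 and 2 (-0.58, adjusted p = 0.0566). Zfp36l2 (0.42 ± 0.42) and the deadenylase gene Cnot6 (0.40 ± 0.20) were not called.

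Of 16 genes listed as AP-1 targets, not all particular to lymphocytes, 1 was higher, 1 lower and 14 not called, with a median difference of 0.15. Ctla4, an inhibitory receptor of activated T cells, read 11.80, 11.89, 11.80 and 11.68 in TEL-JAK2, against 6.18, 6.58 and 6.59 in ICN1. It was 40.6-fold higher in TEL-JAK2 (5.34 ± 0.13, adjusted p = 1.36e-06, limma). Hmox1, the heme oxygenase that macrophages and erythroid tissue express, was 5.70-fold lower (-2.51 ± 0.35, adjusted p = 0.00281), in the same direction as the erythroid and macrophage markers, whose part in it was not tested. Without ICN1 replicates 1 and 2 it was not called (-2.17, adjusted p = 0.0613). Cd69, an early activation marker, differed by 1.68 ± 0.55 (adjusted p = 0.074), and Plaur, the urokinase receptor, by 1.53 ± 0.49 (adjusted p = 0.0693). Plaur was called without TEL-JAK2 replicate 4 (1.09, adjusted p = 0.0401), its highest array.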

How the data were processed

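Expression was measured on Affymetrix mouse arrays, 1 per sample, in 4 TEL-JAK2 and 3 ICN1 leukemias. The authors deposited log2 values per probe set, made with RMA per the submitters' processing notes. Its version and settings are not known here. RMA draws arrays toward 1 distribution, so total RNA cannot be compared. Neither detection calls nor scan dates were used. The number of arrays limits the precision.

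Gene symbols came from the platform annotation of the arrays: of 45037, 34945 had 1 symbol, 932 several and 9160 none, and 13 of 13 member probe sets matched RefSeq (GRCm38.p6). No column was left unused. All probe sets were fitted with limma 3.58.1 in R 4.3.3 (lmFit, eBayes, two-sided). The members, lists and alternatives were chosen with earlier results of these data known. List genes named were up to 3 called with the smallest adjusted p, all where 5 or fewer were called, and the 2 brightest not called. List members without a single-symbol probe set were not analysed here. On 45037 simulated probe sets for this comparison the fit recovered 53 of 100 with a shift of 1 log2 and 80 of 100 with a shift of 2 log2. It made 3 false calls there, and 0 calls with no change. Only 100 random probe sets were shifted by each amount, whereas 8832 were called in the data, so these rates do not describe the members. Figures used matplotlib 3.10.9. Alternatives were 1 probe set per gene, probe sets averaged by gene, no _s_at or _x_at probe sets, no dim probe sets, quantile, median, cyclic loess and CD3 scaling, trend with robust moderation, array weights, a 1.5-fold test, and left-out arrays. The offset planned for values that were not logged was not needed.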

Additional observations from a re-analysis of the deposited data

Results flagged for a closer look

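Among the 13 member probe sets and 30 list genes described, each tested in the 4 TEL-JAK2 arrays, 4 had 1 array far from the rest: the gap to the nearest array, divided by the group's range, exceeded Dixon's critical value. Chance gives such a gap in about 1 in 20 groups. For Junb 1415899_at the ratio was 0.866, with TEL-JAK2 replicate 2 at 8.55 and the others at 7.76 to 7.87. For Plaur 1452521_a_at it was 0.907, with TEL-JAK2 replicate 4 at 9.36 and the others at 7.53 to 7.70. For Hsp90aa1 1426645_at it was 0.878, with TEL-JAK2 replicate 3 at 11.60 and the others at 12.14 to 12.21. For Zfp36l1 1450644_at it was 0.861, with TEL-JAK2 replicate 4 at 9.71 and the others at 10.20 to 10.28. Groups of 3 arrays were not tested in this way, so the high Jun value in ICN1 replicate 1 was not.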

How the results depend on the processing

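Fosl2 1437247_at was called in each of the 16 settings that held it; it is not in the fits with 1 probe set per gene, with the mean of probe sets or without dim probe sets. The count of members called higher was 2, and it was 1 with 1 probe set per gene, the mean of probe sets, no dim probe sets, CD3 centring, a 1.5-fold test, or ICN1 replicates 1 and 2 both left out. Members called lower numbered 3 with CD3 centring and 1 without ICN1 replicates 1 and 2. Calls over all probe sets (8832) became 4380 with 1 probe set per gene, 4329 with the mean, 31563 with CD3 centring, 2196 in the 1.5-fold test, 5813 without ICN1 replicates 1 and 2, and 6175 to 8563 without 1 array.

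Of the lists, other AP-1 and partner genes called (5) numbered 3 with median centring, with trend and robust moderation and in the 1.5-fold test, and 3 to 5 without 1 array. Upstream kinases and factors (2) numbered 1 with median centring, 1 with trend and robust moderation, 8 with CD3 centring, 0 in the 1.5-fold test, 1 without ICN1 replicates 1 and 2, and 1 to 2 without 1 array. Other immediate early genes (6) numbered 3 in the 1.5-fold test and 4 to 6 without 1 array. Heat shock genes (2) numbered 5 with CD3 centring, 0 in the 1.5-fold test and 2 to 3 without 1 array. Without 1 array, AU-rich decay factors called numbered 3 to 4 and AP-1 targets 2 to 3. AU-rich decay factors (4) numbered 0 in the 1.5-fold test and 2 without ICN1 replicates 1 and 2. AP-1 targets (2) numbered 4 without dim probe sets, 4 with CD3 centring and 1 without ICN1 replicates 1 and 2.

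Signs turned with CD3 centring for Fos (-0.40), Fosl2 1422931_at (-0.45), Jund 1440265_at (-0.61), Atf3 (-0.41), Ier2 (-0.50), Elk4 (-0.29), Mapk14 (-0.54), Nfkbia (-0.15), Dnajb1 (-0.0051), Hspa8 (-0.58), Zfp36l2 (-0.20) and Cnot6 (-0.22). That centring subtracts the CD3 difference from every probe set. They turned without ICN1 replicates 1 and 2 for Fos (-0.15), Jun 1417409_at (1.04), Jun 1448694_at (0.54), Ier2 (-0.17), Rps6ka3 (0.0033), Mapk14 (-0.022) and Hspa8 (-0.18), with the mean of probe sets for Mapk14 (-0.12) and Hspa8 (-0.25), and for Jund 1440265_at with quantile normalization (-0.0020) and cyclic loess (-0.034). Without 1 array, differences ran from -0.29 to 0.55 for Fos, -0.95 to 1.24 for Jun 1417409_at, -0.97 to 0.43 for Jun 1448694_at, -0.11 to 0.083 for Jund 1440265_at, -0.25 to 0.34 for Ier2 and -0.12 to 0.15 for Hspa8. The cause of these turns was not tested. Of the 13 member probe sets and the 30 list genes by their brightest probe set, no other changed sign in the settings run. Sign changes were not examined for further probe sets of the list genes or for the single CD3 genes.

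With 4 against 3 arrays, a difference of 1 log2 can be missed. Signal over background was not available for dim probe sets such as Fosb. No paired analysis was possible because replicate numbers follow accession order only.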

Other observations

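Maf, a leucine zipper factor of T helper and macrophage cells, stood out in a single TEL-JAK2 array. All 6 of its probe sets were highest in TEL-JAK2 replicate 3. The brightest, 1456060_at, read 9.55, 8.71, 12.55 and 10.05 in TEL-JAK2 and 8.86, 7.37 and 7.07 in ICN1. The same array had the lowest mean of the monocyte and macrophage markers (6.47), and it was the lowest TEL-JAK2 array for 11 of the 17 other immediate early genes. Its position over all genes was not counted. This probe set and array were picked out after the values were seen.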
